A study of Saccharomyces cerevisiae with 96 samples.

Results

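Wine strains of budding yeast were set against strains from oak and palm wine by their gene expression before any evolution. The comparison took 14 of the 48 columns in the deposited table. Of these, 6 came from 3 wine strains and 8 from 4 strains of the other set, each strain being grown on glucose and on xylulose. The wine set was T73, YJM269 and EC1118. The other set was the oak strains YPS1009 and T7 and the palm wine strains Y12 and PW5. All 14 columns were the unevolved wild type strains, grown in YP medium (yeast extract and peptone) with either glucose or xylulose and harvested in log phase. The xylulose was made from xylose by an enzyme, so that medium also held unconverted xylose. The labels name no added allele, drug or other agent for any of them. The labels give the strain names but not where each was isolated. The habitats are those under which these strains are known. Each column is the authors' average over 2 repeats of a strain, so the strains were the replicates, and the spread between repeats is not known.

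Wine strains form a group of close relatives that has been shaped by grape must, sulfite and copper, whereas oak and palm wine strains belong to lineages separate from it and from each other. Differences known between such groups include copies of the copper-binding CUP1 genes, a rearranged promoter of the sulfite pump gene SSU1, and broken water channel genes AQY1 and AQY2. Levels in the table depend on reads matching the S288c reference genome, from which all of these strains differ in sequence, and how far that moved any value was not tested.

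Values are RPM, the reads of a gene after each library was scaled to a total of 1000000 reads. A value under 10 RPM is left blank in the table. Blanks were set to 10 RPM in every test, so a difference against a blank can be understated. Between 4389 and 5103 genes had a value in each of the 14 columns. On glucose the mean was 4707 in the wine set and 4640 in the oak and palm wine set (exact 2-sided permutation test, p = 0.686), and on xylulose it was 5029 and 5038 (p = 0.857). With 3 strains against 4, that test cannot give a p below 0.0571. A depth could be read from the steps between low values in 6 of the 14 columns, where it was between 335391 and 945507 reads. In the others it is unknown. LEU2 and URA3, which the laboratory strain BY4743 lacks, were blank on both sugars in the wild type column of BY4743 and had values in those of the 7 strains compared. Among the evolved columns LEU2 was blank in the one labelled CLIB215 and had a value in the one labelled BY4743, so evolved columns numbered above 4 were not used.

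The genes were tested with limma on the log2 values, with Benjamini-Hochberg adjustment over all genes of a fit. A gene was called when its adjusted p was under 0.05. Over both sugars 1 of 5329 genes was called (0.0188%), on glucose 2 of 5095 (0.0393%), on xylulose 0 of 5168 (0%), and for the sugar response, the xylulose minus glucose difference, 0 of 5329 (0%). At an unadjusted p under 0.05 the counts were 280 (5.25%), 215 (4.22%), 169 (3.27%) and 174 (3.27%). The called genes were IMD2, over both sugars and on glucose, and HPF1, on glucose. The median log2 difference of all genes, wine minus oak and palm wine as in every difference given here, was 0.03 over both sugars.

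The windows of the R64 reference printed next show the starts of IMD2 and HPF1, the genes that were called. Each window holds 250 bases before the start codon and 50 after it, 5′ to 3′ on the gene's strand. IMD2 (YHR216W) lies at chrVIII:554396-555967 and its window at chrVIII:554146-554445 on the plus strand. HPF1 (YOL155C) lies at chrXV:28703-31606 and its window at chrXV:31557-31856 on the minus strand. Capitals mark TATAAA, the core of a TATA box, and TGACTC, the core of the site of the amino acid regulator Gcn4, each searched on both strands.
IMD2: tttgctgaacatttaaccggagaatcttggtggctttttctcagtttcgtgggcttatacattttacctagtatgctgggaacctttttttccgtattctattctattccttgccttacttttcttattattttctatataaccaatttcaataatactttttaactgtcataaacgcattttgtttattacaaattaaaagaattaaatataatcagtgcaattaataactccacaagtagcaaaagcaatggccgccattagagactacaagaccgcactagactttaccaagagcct
HPF1: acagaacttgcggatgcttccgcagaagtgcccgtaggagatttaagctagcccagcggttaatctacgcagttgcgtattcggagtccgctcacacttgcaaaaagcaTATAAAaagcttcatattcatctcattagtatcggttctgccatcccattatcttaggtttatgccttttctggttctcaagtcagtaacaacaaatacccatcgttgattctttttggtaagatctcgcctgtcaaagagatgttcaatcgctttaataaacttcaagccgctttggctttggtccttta
TATAAA begins 141 bases before the start codon of HPF1. Of 6001 windows of the same length in the genome, 45.2% held TATAAA and 7.98% held TGACTC. The IMD2 window held neither, and the HPF1 window held no TGACTC. These are the letters of the reference, not of the 7 strains.

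IMD2 encodes IMP dehydrogenase, the enzyme at the branch of purine synthesis that leads to GTP. On glucose it stood at 419 RPM in T73, 471 in YJM269 and 185 in EC1118. In the other set it stood at 32.8 RPM in YPS1009, 13.9 in T7, 32.8 in Y12 and 27.8 in PW5. The sets did not overlap, and the lowest wine strain was well above the highest of the 4 others. The means were 358 ± 152 RPM (SD, n = 3) and 26.9 ± 8.92 RPM (SD, n = 4). On xylulose the wine strains had 130 RPM (T73), 147 RPM (YJM269) and 84.8 RPM (EC1118). Y12 had 19.8 RPM and PW5 17.1, and IMD2 was blank in YPS1009 and T7. The sets were thus apart on both sugars, with lower values on xylulose in each strain that had both.

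The log2 difference of IMD2 was 3.41 over both sugars (standard error 0.42, limma adjusted p = 0.00479) and 3.70 on glucose (standard error 0.56, limma adjusted p = 0.00418). On xylulose it was 3.11 (standard error 0.41), with a limma adjusted p of 0.0941 that missed the threshold. The sugar response of IMD2 differed by -0.59 (limma unadjusted p = 0.271). Over both sugars the call held when any strain was left out, with differences from 3.19 to 3.74, and was lost against the palm wine strains alone (3.06, limma adjusted p = 0.144), with no filter on low values, with genes of a value in every column (which leaves IMD2 out), with all 12 strains in the fit, with strain numbers 1 to 4 alone and with exchanged strain numbers. On glucose it was lost without T73 (3.54, limma adjusted p = 0.0958), with no filter, against oak or palm wine strains alone and with exchanged strain numbers.

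The wild type strains outside the comparison did not share the low level. In these 5 strains, CLIB215, CLIB324, CBS7960, BY4743 and SK1, IMD2 ranged from 82.7 to 1133 RPM on glucose, with a median of 259. On xylulose it ranged from 43.7 to 442 RPM, with a median of 56.0. All 5 were above the 4 oak and palm wine strains on either sugar. In the evolved populations numbered 1 to 4, IMD2 had 80.7 (YPS1009), 290.3 (T73), 33.8 (T7) and 50.6 RPM (Y12) on glucose. On xylulose it was blank in YPS1009 and had 227 RPM in T73, 144 in T7 and 28.4 in Y12. T73 remained the highest of these 4 on either sugar.

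**Figure D1:**
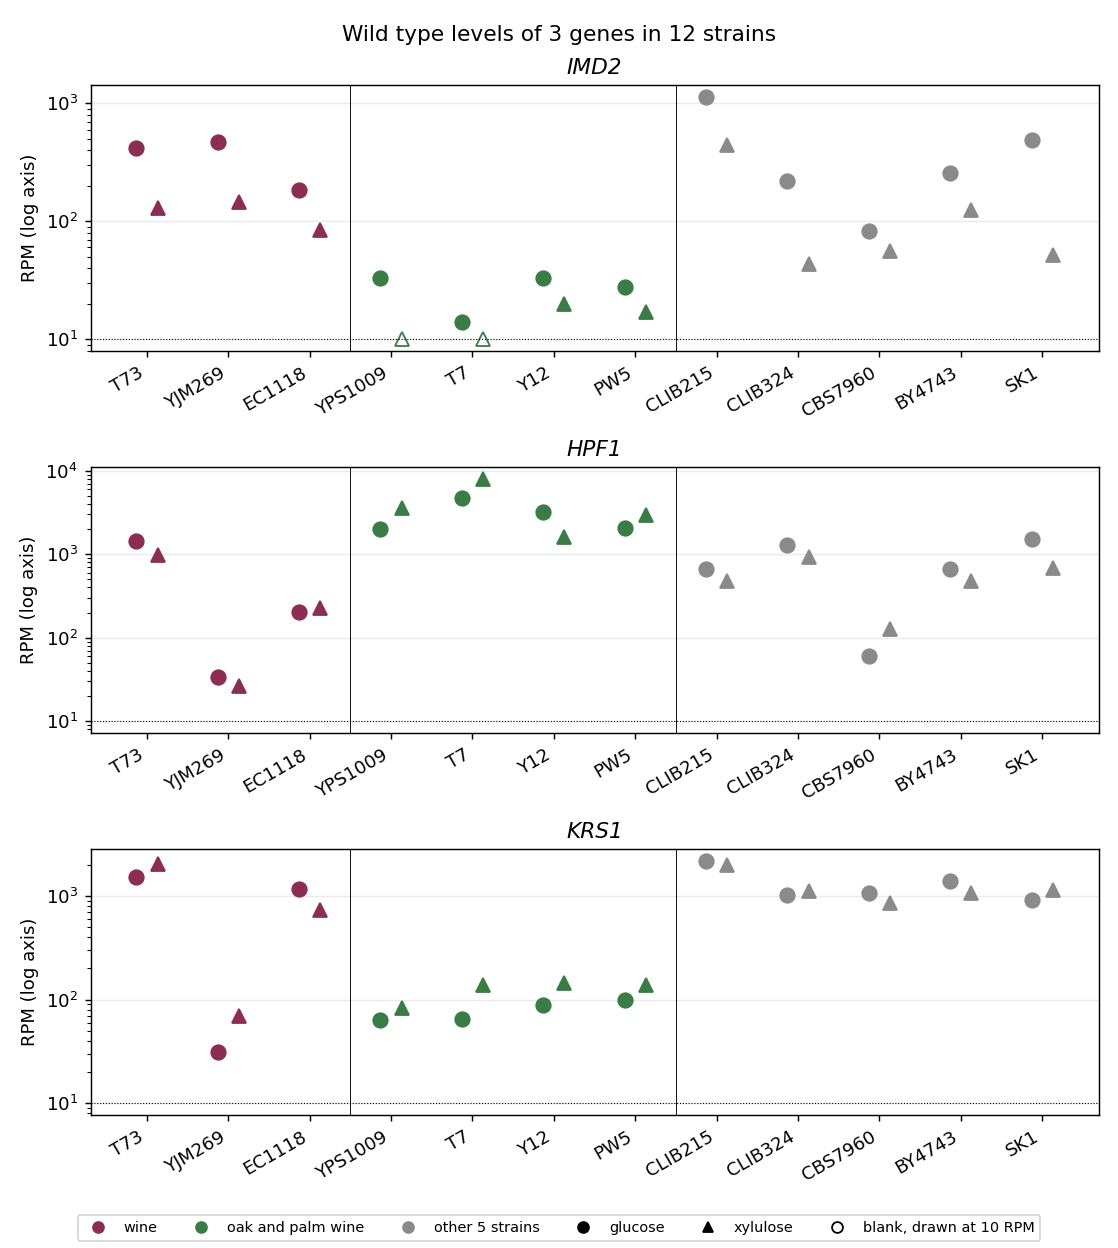
Levels of IMD2, HPF1 and KRS1 in the 12 wild type strains, in RPM on a log axis, with circles for glucose and triangles for xylulose. Open symbols are blanks drawn at 10 RPM, and vertical lines part the wine, the oak and palm wine and the other strains. IMD2 is lowest in the 4 oak and palm wine strains, HPF1 is highest in them, and KRS1 is low in them and in YJM269.

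The reads of IMD2 are not all its own. Of the 50-base windows in the gene, 33.7% also occur elsewhere in the reference, in a partial copy on chromosome I (chrI:227854-229274) and in IMD3 on chromosome XII. The sources used here do not say how reads with more than 1 match were assigned. Both ORFs of the chromosome I copy, YAR073W and YAR075W, were blank in every wild type column. IMD2 is 6676 bases from the right end of chromosome VIII. PHO12, the acid phosphatase gene beside it, had a log2 difference of 0.12 over both sugars (limma unadjusted p = 0.695). Of its own 50-base windows 87.2% occur elsewhere in the reference, so its value may not be that of this locus.

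Other genes of GTP synthesis did not go with IMD2. IMD3 is 88.9% identical to IMD2 over its coding bases and IMD4 79.3%. IMD3 had 321, 367 and 329 RPM on glucose in T73, YJM269 and EC1118, and between 120 and 313 RPM in the 4 others. That difference of 0.55 kept the sets apart, but was not called. On xylulose IMD3 overlapped, with a log2 difference of -0.18. IMD4 differed by less than 0.01 over both sugars, with a range of 280 to 712 RPM over the 7 strains on glucose. GUA1, which turns XMP into GMP, had a log2 difference of -0.27 over both sugars, and HPT1, the salvage enzyme, -0.33. GGC1, the carrier of GTP and GDP across the mitochondrial membrane, had -1.16 (limma unadjusted p = 0.00202, adjusted p = 0.918), with overlapping sets on each sugar.

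HPF1 encodes a cell wall mannoprotein named for its protection of wine from protein haze. On glucose the oak and palm wine strains had 1994 (YPS1009), 4757 (T7), 3218 (Y12) and 2049 RPM (PW5). The wine strains had 1438 RPM in T73, 205 in EC1118 and 33.5 in YJM269. The sets did not overlap, but T73 was near the lower end of the other set while YJM269 was far below it. The log2 difference was -3.71 (standard error 0.68, limma adjusted p = 0.0338). On xylulose the values were 3554 (YPS1009), 7970 (T7), 1601 (Y12) and 2968 RPM (PW5), against 992 (T73), 227 (EC1118) and 26.6 RPM (YJM269). Again no wine strain reached the other set. The log2 difference was -4.23 on xylulose (limma adjusted p = 0.972) and -3.97 over both sugars (limma adjusted p = 0.458). Its spread within the wine set was wide, and over both sugars it was called only when T73 was left out, at -5.27. T73 is the wine strain nearest the other set, so that call follows from leaving it out. On glucose the call was lost without YPS1009 (-3.88), T7 (-3.46) or Y12 (-3.65), with limma adjusted p of 0.0841, 0.369 and 0.762. It was also lost with another filter on low values, with blanks at 5 RPM, with all 12 strains in the fit, against oak or palm wine strains alone, with strain numbers 1 to 4 alone and with exchanged strain numbers.

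The other 5 wild type strains had between 60.8 and 1521 RPM of HPF1 on glucose and between 127 and 917 RPM on xylulose. All were below the 4 oak and palm wine strains. Within HPF1 13.8% of the 50-base windows occur again in the reference, and among those of its last 500 bases 46.6% do. Repeats inside the gene count among these, and where the matches lie was not looked up. CSS1, a mannoprotein gene with 47.9% of such windows in its last 500 bases, was between 10.2 and 55.3 RPM in the 7 strains on glucose. Whether it shares windows with HPF1 was not tested. HPF1 belongs to a list of flocculins and cell wall mannoproteins of which 15 members were tested over both sugars. Of these 9 were higher and 6 lower in the wine set, and 0 were called. CWP2, a major wall mannoprotein, had 3106 RPM in T73, 4779 in YJM269 and 3263 in EC1118 on glucose, against 1115 to 2796 RPM in the other set. Its log2 difference over both sugars was 0.75 (limma unadjusted p = 0.0128, adjusted p = 0.918). FLO11, the adhesin of pellicles and biofilms, was above 1000 RPM on xylulose in EC1118 (1217 RPM) and T7 (1108 RPM) and between 25.9 and 43.6 RPM in the other strains with a value, so it followed neither set.

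KRS1 (YDR037W), on chromosome IV, was chosen after its values were seen. It encodes lysyl-tRNA synthetase, which every cell needs. On glucose it had 64.1 (YPS1009), 64.4 (T7), 89.4 (Y12) and 99.5 RPM (PW5) in the oak and palm wine strains. In the wine set it had 1525 RPM in T73 and 1174 in EC1118, but 30.9 in YJM269. On xylulose the oak and palm wine strains had 83.3 to 145 RPM, T73 had 2051, EC1118 728 and YJM269 68.7. The other 5 wild type strains had between 916 and 2187 RPM on glucose and between 867 and 2010 RPM on xylulose. The 12 wild type strains thus fell into a group of 5 low and 7 high ones with no value between 145 and 728 RPM. YJM269 went with oak and palm wine. In the evolved populations numbered 1 to 4, KRS1 had 273 (YPS1009), 1325 (T73), 87.6 (T7) and 482 RPM (Y12) on glucose. On xylulose it had 127 (YPS1009), 957 (T73), 256 (T7) and 156 RPM (Y12), so these populations did not keep that gap. The log2 difference of the sets was 2.11 (limma unadjusted p = 0.0261, adjusted p = 0.918). Without YJM269, the wine strain that goes against it, the difference was 3.70, and a p-value after that choice would be no support. No 50-base window of KRS1 occurs elsewhere in the reference. ARO3, of aromatic amino acid synthesis and separated from the start of KRS1 by 1 gene, overlapped between the sets at 48.5 to 339 RPM on glucose. On the other side lie ENA5, ENA2 and ENA1, which encode sodium pumps. ENA5 had a value in T73 (42.4 RPM on glucose and 40.4 on xylulose) and EC1118 (21.0 RPM on xylulose) and was blank in YJM269 and in all 4 oak and palm wine strains. ENA1 and ENA2 did not go with ENA5. The log2 xylulose minus glucose difference of ENA1 was 2.13 in T73, 2.45 in YJM269 and 0 in EC1118. That of ENA2 was 1.63, 2.45 and 0. For both it was -1.17 in Y12 and 0 in YPS1009, T7 and PW5. YJM269 thus had a value of both on xylulose. In the ENA genes between 88.5% and 100% of the windows occur elsewhere.

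**Figure D2:**
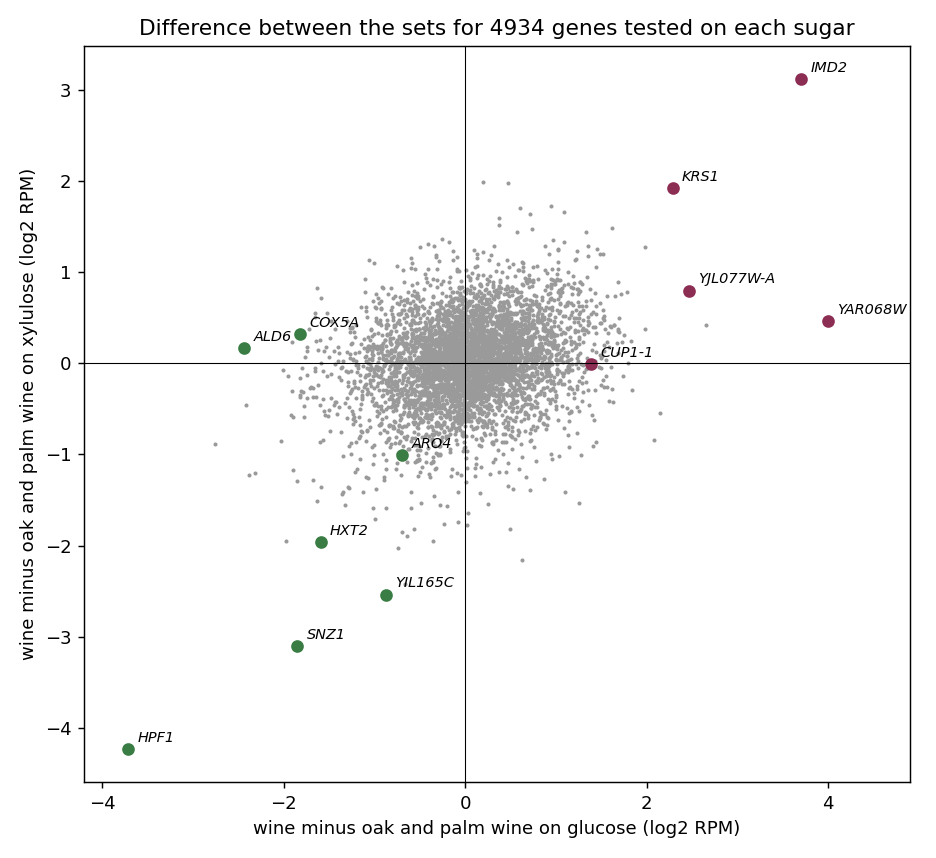
Difference between the sets on glucose (x axis) and on xylulose (y axis), in log2 RPM, for the 4934 genes tested on each sugar. Each point is a gene, and labelled points are genes named in the text, in dark red where their summed difference is above 0 and in green where it is below. IMD2 at 3.70 and 3.11 and HPF1 at -3.71 and -4.23 lie at opposite corners, while ALD6 and COX5A lie far to the left with little difference on xylulose.

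The sets did not overlap at all for a small share of genes. Over both sugars 275 genes (5.16%) had non-overlapping sets, 158 with wine higher (2.96%) and 117 with wine lower (2.20%). On glucose it was 277 (5.44%), with 160 (3.14%) and 117 (2.30%). On xylulose it was 213 (4.12%), with 126 (2.44%) and 87 (1.68%). For the sugar response it was 212 (3.98%), with 92 (1.73%) and 120 (2.25%). Sets of 3 and 4 strains drawn at random are apart with a probability of 0.0571 for a gene without ties. Each share of genes with sets apart was below that, so these shares are no result about wine strains. Of the 4934 genes tested on each sugar, 18 (0.365%) kept the sets apart in the same direction on both, 10 with wine higher (0.203%) and 8 with wine lower (0.162%). Those higher in wine were IMD2, YJL077W-A, KGD4, CIM1, PDI1, ULP2, YIP3, SIF2, TOS4 and YCR090C. Those lower were SNZ1, HPF1, NOP19, URA3, JJJ3, ARO4, SMD1 and TAF4. Apart from IMD2 and HPF1, none of them was called in any of the 4 fits.

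SNZ1, which makes vitamin B6, was next to IMD2 by p. On glucose it had 11.6 RPM in T73, was blank in YJM269 and EC1118, and had 31.3 (YPS1009), 59.6 (T7), 62.6 (Y12) and 17.6 RPM (PW5) in the other set. On xylulose it was far more abundant, at 1759 (YPS1009), 1809 (T7), 686 (Y12) and 442 RPM (PW5). The wine strains then had 441 RPM in T73, 136 in YJM269 and 25.7 in EC1118. T73 and PW5 were thus almost equal, and the sets were only just apart. The log2 difference over both sugars was -2.47 (standard error 0.51, limma unadjusted p = 0.000245, adjusted p = 0.458). Without T73, the wine strain nearest the other set, it was -2.99, and a p-value after that choice would be no support. SNO1, its partner in the same enzyme, had 80.5 (YPS1009), 33.0 (T7), 78.8 (Y12) and 36.1 RPM (PW5) on xylulose, against 50.5 (T73) and 14.8 RPM (YJM269) and a blank in EC1118. Its sets overlapped.

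URA3 and ARO4 were lower in each wine strain on each sugar. URA3, of uracil synthesis, had 291 (T73), 188 (YJM269) and 283 RPM (EC1118) on glucose. The other set had 410 (YPS1009), 409 (T7), 614 (Y12) and 756 RPM (PW5). Its log2 difference over both sugars was -0.91 (limma adjusted p = 0.918). The other genes of uracil synthesis, URA1, URA2, URA4, URA5 and URA6, had differences between -0.51 and 0.12, and none kept the sets apart over both sugars. ARO4, at the entry to aromatic amino acid synthesis, had 747 (T73), 600 (YJM269) and 787 RPM (EC1118) on glucose, against 860 to 1360 RPM. On xylulose it had 2042 (T73), 1502 (YJM269) and 594 RPM (EC1118), against 2278 to 2680 RPM. Its difference was -0.85 (limma adjusted p = 0.918).

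Several of the genes of lowest p were blank or near the floor in 1 set on at least 1 sugar, where few reads stand behind a value. Higher in wine among these were YJL077W-A, which overlaps ICS3 on the opposite strand by 87 bases, LAS1, DAD3, YIR042C, YPR015C, RCN1 and IRC18, with log2 differences between 0.81 and 1.63. On glucose YIR042C and YPR015C each had a value in 3 wine strains and in 1 of the other set. They thus passed the filter through the set where they are high. On xylulose YJL077W-A was not near the floor, with 33.3 to 162 RPM in the 7 strains. RRT8, a lipid droplet protein, had 38.0 RPM in T73, 108 in YJM269 and 50.7 in EC1118 on glucose, against at most 29.8 RPM in the other set. Lower in wine were RRI2 (-1.08) and YER137W-A (-1.81), the latter with 92.3 to 206 RPM in the other set on glucose. KGD4, a subunit of the 2-oxoglutarate dehydrogenase of mitochondria, had 186, 171 and 145 RPM in T73, YJM269 and EC1118 on glucose, against 43.7 to 125 RPM. On xylulose it had 398, 380 and 560 RPM against 236 to 290 RPM. NCW1, a cell wall protein, had 1194, 1682 and 1790 RPM on glucose against 556 to 790 RPM. On xylulose T73, with 405 RPM, lay below all 4 of the other set, and YJM269 (1417 RPM) and EC1118 (1265 RPM) far above. Without T73, the wine strain that goes against it, the difference of NCW1 over both sugars was 1.39. PDR15, a multidrug pump, had 371 RPM in YJM269 and 493 in EC1118 on xylulose, whereas T73 (80.4 RPM) was within the 32.9 to 99.9 RPM of the other set. YDR406W-A, whose systematic name places it next to PDR15, had the same glucose value as PDR15 in 6 of the 7 strains, so the pair was not read as 2 results.

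Among the genes lower in wine, HXT2 encodes a hexose transporter of high affinity. On glucose it had 206 (T73), 83.0 (YJM269) and 38.5 RPM (EC1118), against 221 to 369 RPM. On xylulose it had 987 RPM in T73, which was within the 549 to 1313 RPM of the other set, and 123 and 111 RPM in YJM269 and EC1118. The difference of HXT2 was -1.78 (limma adjusted p = 0.918), and without T73, the wine strain nearest the other set, -2.60. IMA1, an isomaltase, had 46.5 RPM in T73 and was blank in YJM269 and EC1118 on glucose, against 46.2 to 83.5 RPM, so T73 just overlapped. UGA3, the activator of GABA use, was blank on glucose in all 3 wine strains and in YPS1009. NOP19, which acts in the maturation of the small ribosomal subunit, had 22.2 to 61.1 RPM in the oak and palm wine strains on xylulose and at most 18.0 RPM in wine strains.

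YIL165C and YLL053C are pieces of genes that are interrupted in S288c. YIL165C is continuous with the nitrilase gene NIT1 in many other strains. On xylulose it had 372 (YPS1009), 305 (T7), 196 (Y12) and 206 RPM (PW5). The wine strains had 69.4 (T73), 62.4 (YJM269) and 20.8 RPM (EC1118), so the sets were apart. Its difference on xylulose was -2.54 (limma adjusted p = 0.601). NIT1 itself was blank in all 14 columns. YLL053C overlaps AQY2 by 50 bases on the same strand. On glucose it had 149 (YPS1009), 62.5 (T7), 122 (Y12) and 29.3 RPM (PW5), was at 14.1 RPM in T73 and was blank in YJM269 and EC1118. Its difference on glucose was -2.76 (limma adjusted p = 0.497), and on xylulose the sets overlapped.

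The genes known to differ between wine and other strains were followed whatever their values. SSU1 overlapped on each sugar. On glucose it had 67.2, 75.3 and 87.5 RPM in T73, YJM269 and EC1118 and 32.8 to 179 RPM in the other set. On xylulose YJM269 was highest with 503 RPM and EC1118 lowest with 44.8 RPM. Its log2 difference over both sugars was -0.20 (standard error 0.47, limma unadjusted p = 0.683). FZF1, its activator, was blank in all 7 strains on xylulose and at most 29.0 RPM on glucose. AQY1 had a value only in T7 on glucose (18.9 RPM) and in YPS1009 (13.9 RPM) and Y12 (21.6 RPM) on xylulose. AQY2 had one only in T7 on glucose (14.4 RPM) and in YPS1009 on xylulose (11.1 RPM). Neither water channel had a value in a wine strain, but neither had a value in 3 strains on 1 sugar, so they were not tested.

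CUP1-1 and CUP1-2 are copies that bind copper, and every 50-base window of them occurs elsewhere, so their columns were equal in all 48 cases and were read as 1 value. On glucose CUP1 had 10607 RPM in T73 and 7303 in EC1118, but 2270 in YJM269, which was within the other set at 930.5 (YPS1009), 3724 (T7), 2312 (Y12) and 2617 RPM (PW5). The log2 difference was 1.39 (limma adjusted p = 0.817). On xylulose the values were lower in each strain, with 218 (T73), 18.5 (YJM269) and 159.5 RPM (EC1118) against 29.2 to 261 RPM, and the difference was -0.01. Without YJM269, the wine strain within the other set, the glucose difference of CUP1 was called, which follows from leaving that strain out.

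The lists of genes were described by counts and medians beside all genes tested. Over all genes, 46.4% were lower in the wine set on xylulose and the median difference was 0.03. No list held a called gene other than IMD2, in purine synthesis, and HPF1, in the wall list.

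Amino acid biosynthesis genes, most of them targets of Gcn4, were lower in wine on xylulose in 65 of 71 cases, with a median log2 difference of -0.48 and 0 called. On glucose it was 54 of 70, with a median of -0.26. On xylulose the mean of the list was 572 RPM in T73, 492 in YJM269 and 251 in EC1118, against 524 (YPS1009), 654 (T7), 528 (Y12) and 602 RPM (PW5). T73 lay within the other set, and EC1118 was far below all. On glucose the list means of the wine strains (226, 231 and 251 RPM) were below the lowest of the other set (254 RPM), by little in EC1118. The members of lowest p after ARO4 were HOM3 (-1.03), of the aspartate pathway, ORT1 (-1.23), the ornithine carrier, and LYS9 (-0.95), of lysine synthesis. HOM3 had 27.3 to 66.5 RPM in wine and 56.6 to 207 RPM in the other set on glucose.

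On xylulose 53 of 56 nucleolar genes of ribosome assembly were lower in wine, with a median of -0.47 and 0 called. Mitochondrial ribosomal protein genes went the other way, with 49 of 66 higher, a median of 0.17 and 0 called. Their means were 182 (T73), 173 (YJM269) and 316 RPM (EC1118), against 164 (YPS1009), 150 (T7), 275 (Y12) and 225 RPM (PW5). Only EC1118 was above the other set. The means of the nucleolar list were 299 RPM in T73, 109 in YJM269 and 145 in EC1118, against 244, 180, 302 and 287 RPM in YPS1009, T7, Y12 and PW5. T73 was again inside the other set. Small subunit ribosomal protein genes were lower in 43 of 56, with a median of -0.09. Of 16 purine and one-carbon genes 14 were lower, with a median of -0.53, IMD2 going the other way. ADE17, of purine synthesis, had 52.2 RPM in T73, a blank in YJM269 and 25.4 in EC1118 on xylulose, against 48.4 to 258 RPM. On glucose that list had 9 of 16 genes higher.

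Energy genes differed with the sugar. Of 26 glycolysis and fermentation genes, 21 were higher in wine on xylulose, with a median of 0.45, and 18 lower on glucose, with a median of -0.09. The list means on xylulose were 1067 (T73), 1569.8 (YJM269) and 1884 RPM (EC1118), against 1370.2 (YPS1009), 1558 (T7), 805 (Y12) and 798 RPM (PW5), so the sets overlapped. Respiratory chain and ATP synthase genes were lower in wine in 32 of 38 cases on glucose (median -0.50) and higher in 31 of 38 on xylulose (median 0.16). On glucose their mean was 183 RPM in T73 and 172 in EC1118 and 409 in YJM269, which was the highest of the 7. Gluconeogenesis and glyoxylate genes were lower in 13 of 15 over both sugars, with a median of -0.54. On xylulose their means were 152 (T73), 119 (YJM269) and 168 RPM (EC1118), against 257 (YPS1009), 220 (T7), 275 (Y12) and 106 RPM (PW5). PW5 was thus below every wine strain. On glucose the wine means were 28.4 to 35.9 RPM, against 39.5 (YPS1009), 36.6 (T7), 152 (Y12) and 46.2 RPM (PW5). There the sets were only just apart, and Y12 was far above all other strains. SFC1, the succinate and fumarate carrier, had 192 (T73), 148 (YJM269) and 117 RPM (EC1118) on xylulose, against 286 to 519 RPM. ICL1, isocitrate lyase, had 132 to 362 RPM in wine and 203 to 932 RPM in the other set. Stress and heat shock genes were higher in 27 of 35 on xylulose, with a median of 0.40, and their mean was 264 RPM in T73, 889 in YJM269 and 550.4 in EC1118, against 269 to 539 RPM.

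**Figure D3:**
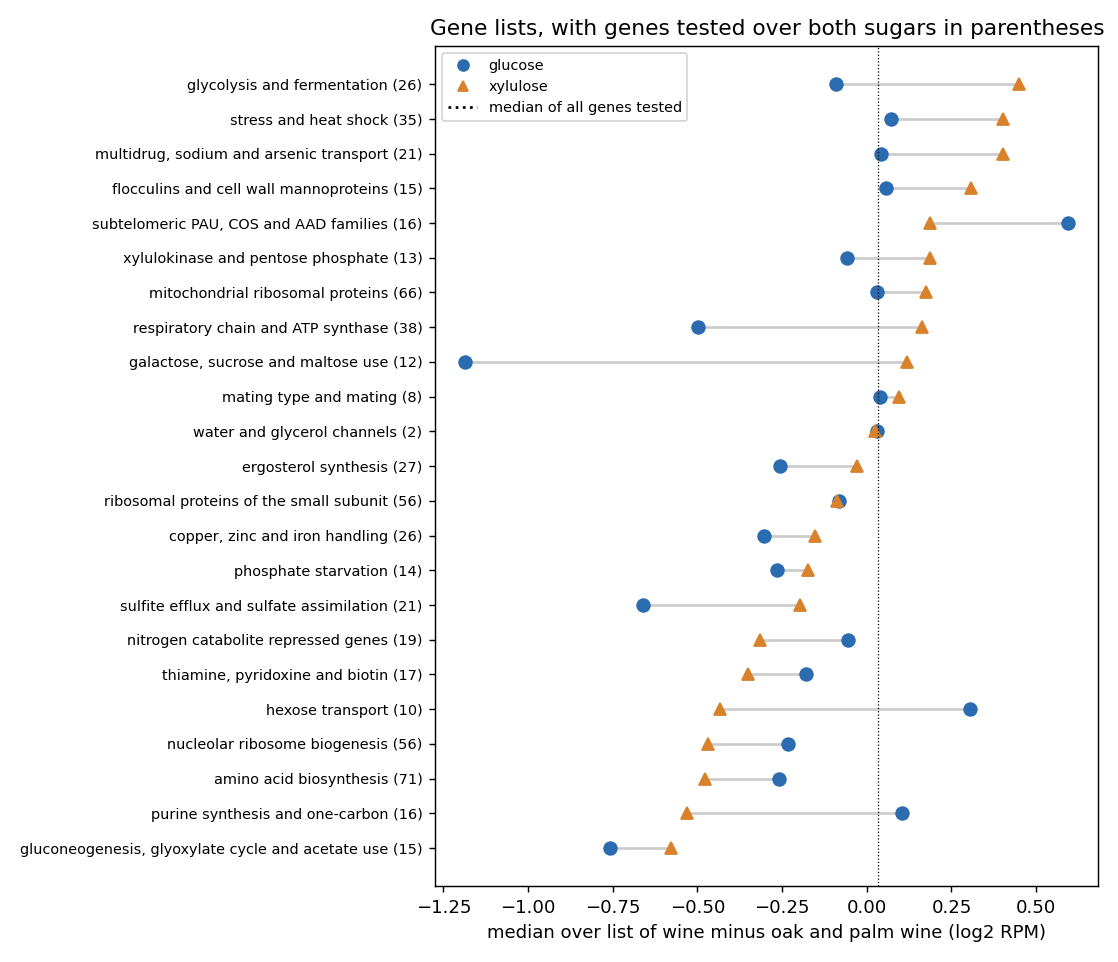
Median over each gene list of the wine minus oak and palm wine difference, in log2 RPM, with circles for glucose and triangles for xylulose. The dotted line is the median of all genes tested over both sugars, 0.03, and numbers in parentheses are genes tested over both sugars. Amino acid biosynthesis stands at -0.26 and -0.48, and the respiratory chain moves from -0.50 on glucose to 0.16 on xylulose.

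The other lists were as follows over both sugars. Sulfate assimilation genes were lower in wine in 18 of 21 (median -0.32), and YPS1009 had the highest mean on glucose (338 RPM, the others 51.3 to 110). Metal handling genes were lower in 18 of 26 (median -0.29), and FET3, the iron oxidase of the cell surface, had 20.7 (T73), 108 RPM (YJM269) and a blank (EC1118) on glucose against 43.6 to 380 RPM. Ergosterol genes were lower in 21 of 27 (median -0.22). Multidrug, sodium and arsenic transport genes were higher in 14 of 21 (median 0.38), and PDR5, the broad multidrug pump, kept the sets apart on xylulose with 329, 363 and 383 RPM in T73, YJM269 and EC1118 against 132 to 231 RPM. Hexose transport genes were lower in 6 of 10 (median -0.18), with 8 of 10 lower on xylulose (median -0.43) and 6 of 9 higher on glucose (median 0.31). Pentose phosphate and xylulokinase genes were higher in 8 of 13 (median 0.17), nitrogen catabolite repressed genes lower in 13 of 19 (median -0.27), and vitamin genes lower in 10 of 17 (median -0.36). Phosphate starvation genes were lower in 9 of 14 (median -0.23). Genes of galactose, sucrose and maltose use were lower in 9 of 12 (median -0.52), subtelomeric family genes higher in 11 of 16 (median 0.20), mating genes higher in 5 of 8 (median 0.26) and mitochondrial ribosomal protein genes higher in 39 of 66 (median 0.04). The 2 water and glycerol channel genes tested went in opposite directions.

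The response to xylulose was asked directly by comparing the xylulose minus glucose difference of each strain. Respiratory chain genes had the larger response in wine in 35 of 38 cases, with a median of 0.60 against -0.02 for all genes, but 0 were called. Their list means on glucose and xylulose were 183 and 901 RPM in T73, 172 and 997 in EC1118, and 409 and 881 in YJM269. In the other set they were 389 and 707 (YPS1009), 311 and 851 (T7), 314 and 907 (Y12), and 259 and 805 RPM (PW5). By these means YJM269 rose less than T7, Y12 and PW5, so not every wine strain had the larger response. COX5A, the aerobic isoform of a cytochrome oxidase subunit, had responses on the log2 scale of 3.94 (T73), 3.32 (YJM269) and 4.58 (EC1118) in wine, and of -0.02 (YPS1009), 2.16 (T7), 2.52 (Y12) and 2.56 (PW5) in the other set. The responses did not overlap, and the difference was 2.14 (limma unadjusted p = 0.0280, adjusted p = 0.999). COX5A was chosen after its values were seen and is not typical of its list. It was the only 1 of the 38 genes with responses apart, against 3.98% of all genes. It was also the only 1 of them with a limma unadjusted p under 0.05. On glucose COX5A had 40.2 to 112 RPM in wine and 170 to 396 RPM in the other set, and on xylulose the sets overlapped.

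PGK1, phosphoglycerate kinase, responded by -1.40 (T73), -0.55 (YJM269) and -0.11 (EC1118), and by -2.11 (YPS1009), -1.87 (T7), -2.91 (Y12) and -2.62 (PW5). The difference was 1.69 (limma unadjusted p = 0.0125, adjusted p = 0.999). ALD6, the cytosolic enzyme that makes acetate, responded by 3.68 to 4.70 in wine and by -0.94 (YPS1009) to 3.62 (T7) in the other set. On glucose ALD6 had 2133 RPM in YPS1009 and 57.7 to 614 RPM in the other 6 strains. NNR2, a repair enzyme of damaged NADH, had a difference in response of 2.14 (limma unadjusted p = 0.00379, adjusted p = 0.999). HEF3, a translation elongation factor, had one of -2.13 (limma unadjusted p = 0.00509, adjusted p = 0.999). HEF3 was blank on glucose in all 4 oak and palm wine strains and at 20.3 to 71.3 RPM in wine.

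**Figure D4:**
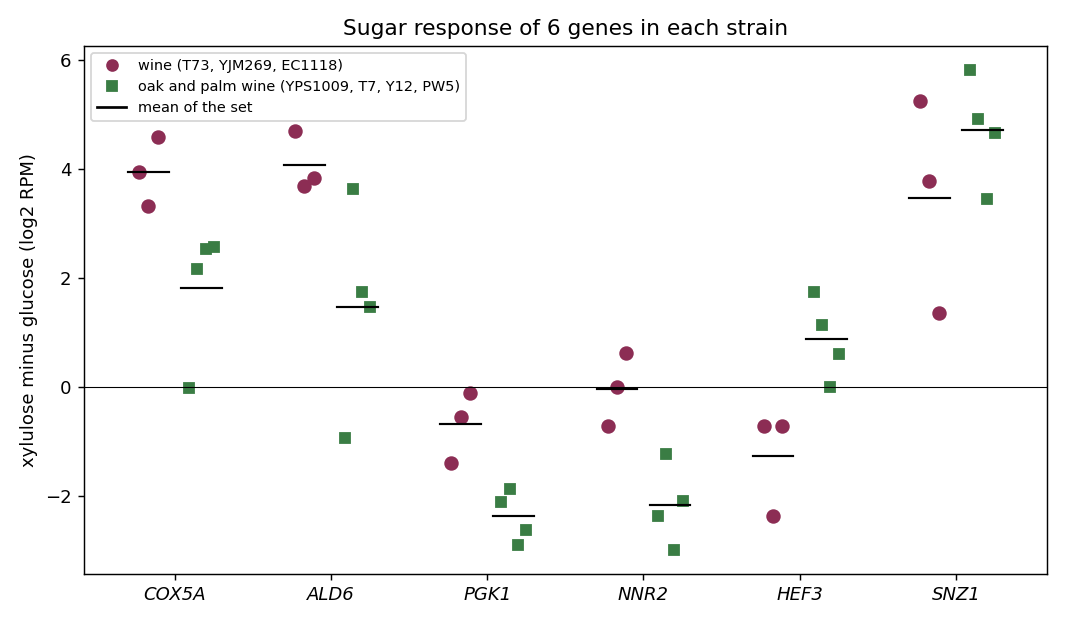
Xylulose minus glucose difference in log2 RPM of 6 genes chosen after their values were seen, for the 3 wine strains (circles) and the 4 oak and palm wine strains (squares), with a bar at each mean. The sets are apart for COX5A, ALD6, PGK1, NNR2 and HEF3 and overlap for SNZ1. None was called.

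The mean correlation between strains was about as low within the sets as between them. As a description, the deviations from the mean of the 7 strains were correlated over 3213 genes on glucose and 4292 on xylulose, which share a reference and for which negative values are usual because the deviations of the 7 sum to 0. On glucose the mean r was -0.19 within wine, -0.16 within oak and palm wine and -0.16 between the sets. On xylulose the means were -0.21, -0.18 and -0.14. The highest values on xylulose were between T73 and Y12 (0.50) and between T73 and PW5 (0.49), and Y12 and PW5 had 0.32. Inside the wine set YJM269 and EC1118 had 0.22, and T73 and YJM269 -0.55.

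Genes of chromosome XVI were shifted upward in EC1118. The median deviation of its genes there was 0.27 on glucose and 0.23 on xylulose, and at most -0.03 in each of the other 6 strains. On glucose the 45 genes of chromosome I had a median of 0.29 in Y12, and on xylulose it was 0.07. SSU1, ALD6 and AQY1 lie on chromosome XVI. Subtracting each chromosome's median left the same numbers of calls, 1, 2, 0 and 0.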

How the data were processed

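RNA of 12 strains was measured as wild type and after evolution, in glucose and in xylulose medium, with 2 repeats of each (96 samples in 48 columns). The authors sequenced poly(A) RNA as single reads of 50 bases, removed ribosomal reads, mapped with Bowtie to R64, collapsed reads by molecular identifier, scaled each library to 1000000 reads and deposited log2 values averaged over the 2 repeats. Per the deposited table, log2 values under 10 RPM are blank. The scale on which repeats were averaged and the treatment of reads with several matches are not given in the sources used here. No counts were used. A value of 1 read could be recovered only in columns where at least 85% of the values up to 60 RPM fell on whole steps within 0.004 RPM.

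Blanks were set to 10 RPM and a gene entered with a value in at least 3 of the 7 strains. Of 6701 names, 5953 matched the R64 annotation and 748 did not. limma 3.58.1 in R 4.3.3 (lmFit, eBayes with trend, Benjamini-Hochberg adjustment) was run over both sugars, on each sugar and on the xylulose minus glucose difference, and tested on simulated data. Strains were the replicates, so p-values measure the spread between strains. The tests take the strains as independent, which related strains are not, and habitat cannot be told apart from shared ancestry. Single values had an exact 2-sided permutation test over 35 splits. The log2 difference is wine minus oak and palm wine.

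Genes were named by rule: the called genes and then the next by p, 12 in each direction over both sugars, up to 3 in each direction for each other fit and up to 4 called members of a list. SSU1, FZF1, CUP1-1, CUP1-2, AQY1 and AQY2 were named whatever their values. The other genes described were picked after their values were seen. The strains, the gene lists and the tests were chosen with earlier results of these data known. Alternatives concerned the filter, the blanks, the pseudocount, the scaling, the strains in the fit and their numbers. Windows of 50 bases were matched to both strands of R64, and a window repeated within its own gene also counts as found elsewhere. Sequence at the start of KRS1 is not reported here. Python 3.11.15, numpy 2.4.6, pandas 2.3.3, scipy 1.17.1 and matplotlib 3.10.9 were used.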

Additional observations from a re-analysis of the deposited data

Results flagged for a closer look

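In 14 of 58 groups of 4 oak and palm wine values, 1 strain stood apart from the 3 others by Dixon's criterion, which chance gives in about 1 of 20 groups. The wine set, with 3 strains, was too small for it. In 8 of these cases the 3 other strains were blank and were set to the floor, so the flag marks the only strain with a value. On glucose these were YJL077W-A in Y12 (17.9 RPM), YIR042C in T7 (23.7 RPM), LAS1 in YPS1009 (21.9 RPM), DAD3 in YPS1009 (10.9 RPM), YPR015C in YPS1009 (10.9 RPM), AQY1 in T7 (18.9 RPM) and AQY2 in T7 (14.4 RPM). On xylulose it was AQY2 in YPS1009 (11.1 RPM).

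The remaining flags were of a strain below the others. KRS1 on xylulose had 83.3 RPM in YPS1009, and the other strains of the set had at least 139 RPM. SSU1 on xylulose had 72.9 RPM in PW5, and the others at least 297 RPM. YDR406W-A on xylulose had 31.7 RPM in PW5, and the others at least 91.9 RPM. YJL077W-A on xylulose had 33.3 RPM in YPS1009, and the others at least 79.2 RPM. DAD3 on xylulose had 12.8 RPM in T7, and the others at least 32.3 RPM. UGA3 on glucose was blank in YPS1009, drawn at the floor of 10 RPM, and the others had at least 43.9 RPM.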

How the results depend on the processing

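Of 33 values followed, the alternatives left the call and direction of single genes in 612 of 652 cases, with 22 calls lost, 6 gained and 12 reversals. Over both sugars 0 genes were called by limma with no filter (282 at an unadjusted p under 0.05), with genes of a value in all 7 columns (137; IMD2, with blanks, was not among those tested), with all 12 strains (376), against palm wine alone (196) and with exchanged numbers (284). Without each strain in turn the count was 1 to 5, with 5 without T73 (HPF1, HXT2, IMD2, NCW1 and SNZ1) and 2 without YJM269 (IMD2 and KRS1). Calls gained by leaving out the wine strain that most goes against a difference follow from that choice. They are no evidence about wine strains. On glucose 0 were called with no filter (225), against oak alone (157), against palm wine alone (173) and with exchanged numbers (166), and 1 with values in all 7 columns, a minimum mean of 50 RPM, blanks at 5 RPM or all 12 strains. With numbers 1 to 4 alone it was 13, T73 then being the only wine strain and assumed to vary like the others. Without each strain in turn it was 1 to 19, with 19 without YJM269 and 1 without YPS1009, T7 or Y12. On xylulose 1 gene, KRS1, was called with numbers 1 to 4 alone, and 0 without any 1 strain. The response gave 0 throughout. For IMD2 the adjusted p over both sugars ranged from 6.7e-05 to 0.877 and its difference from 1.29 to 3.75.

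The exchange of wild type numbers 5 to 8 with 9 to 12 tests the labels and puts other strains in the wine set. It gave -0.0062 for YIR042C, -0.016 for NCW1, -0.072 for YPR015C, -0.58 for YDR406W-A, 0.52 for IMA1, 0.82 for HXT2, 0.20 for FZF1 and -0.56 for CUP1-1 and CUP1-2, all reversed. The absence of LEU2 and URA3 in the wild type column of BY4743 goes with the wild type numbers as labelled. The evolved columns do not match theirs, since LEU2 is blank in the one labelled CLIB215 and has 88.8 and 82.8 RPM in the one labelled BY4743 on glucose and xylulose. Without each strain in turn SSU1 ranged from -0.59 to 0.23 and FZF1 from -0.26 to 0.0012, SSU1 being above 0 without Y12 or EC1118 and FZF1 without PW5. The causes were not tested. No paired analysis was possible because each column holds both repeats as 1 value and the sets share no strain. Depth is unknown in most columns, so counting error at low values could not be given.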

Other observations

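Formate dehydrogenase genes were blank on glucose in all 3 wine strains. FDH1, which oxidises formate, had 125 RPM in YPS1009, 11.5 in T7 and 434 in Y12 and was blank in PW5. On xylulose it had 1565 RPM in YPS1009, 404 in T7, 227 in Y12 and 40.1 in PW5, against 42.3 (T73), 191 (YJM269) and 211 RPM (EC1118), so the sets overlapped. ADY2, an acetate carrier, was blank in each wine strain on both sugars. On glucose it had 21.9 (YPS1009), 20.6 (T7), 26.8 (Y12) and 26.6 RPM (PW5), and on xylulose 139 RPM in YPS1009 and 14.7 in T7. Both genes were chosen after their values were seen.

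YAR068W, an ORF of unknown role, had 4398 RPM in YJM269 on glucose and 4357 on xylulose. In the other 6 strains it was at most 282 RPM on either sugar. Of its 50-base windows 88.6% occur elsewhere in the reference, and YHR214W-A, on the same chromosome as IMD2, also had its highest glucose value in YJM269 (541 RPM). The hexose transporters HXT6 and HXT7 are near-identical copies, so their split is uncertain. HXT6 had 4597 RPM in YJM269 and 2559 in PW5 on glucose, where HXT7 had 382 and 259 RPM, and in the other 5 strains HXT7 was higher than HXT6.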
